A study of Homo sapiens with 8 samples.

Results

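The genes described here encode the proteins of the cytosolic ribosome. They were chosen by name alone, as the gene entries of the deposited expression table whose symbol is RPL or RPS followed by a number and at most a letter A, L or X, or is RPLP0, RPLP1, RPLP2 or RPSA. Where a symbol stood on several entries, the entry with the highest mean was taken. The rule matched 92 entries, which gave 81 genes among 63816 entries in all. Of the 81 genes, 46 encode proteins of the large (60S) subunit, 31 encode proteins of the small (40S) subunit and 4 (RPL3L, RPL10L, RPL39L and RPS27L) are paralogs of such genes. These include 77 of the 80 standard ribosomal protein genes. FAU and RACK1, which carry other names, were not matched.

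RNA was measured in Caco-2, an established line from a human colorectal adenocarcinoma. The 4 empty vector samples had been transfected with pcDNA3.1 alone and the 4 Siglec-XII samples with pcDNA3.1 carrying full-length SIGLEC12, and per the methods of the study both were kept as stable transfectants under G418 selection. Siglec-XII is a human member of a family of sialic acid receptors that has lost sialic acid binding but keeps inhibitory signaling motifs, and the line does not make it on its own. The comparison asks how the transcriptome differs once the receptor is made. The labels call the samples cultures of stable clones and the methods speak of technical replicate libraries, so the samples of a group are not known to be independent, and a p-value measures only the spread between these libraries. Each group came from its own transfection, so that a difference between transfectants and an effect of the receptor cannot be told apart.

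A eukaryotic ribosome holds most of its proteins as a single copy, so cells make these proteins in matched amounts and their mRNAs are among the most abundant in any growing cell. The mRNAs carry a 5′ terminal oligopyrimidine (TOP) tract, a cytosine at the cap followed by a run of pyrimidines, through which mTOR signaling controls their translation and stability as a group. Free ribosomal proteins, above all RPL5 and RPL11 in a complex with 5S rRNA, can bind MDM2 and so link ribosome production to p53.

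The tract could be read from the RefSeq promoter table (GRCh38.p14), which holds 300 bases around each annotated start, 250 before and 50 after it. Of the 81 genes, 64 were found there, 10 of them with more than 1 listed start. A tract was counted where the coding strand had, exactly at a listed start, a C followed by at least 4 further C or T, which makes at least 5 pyrimidines. It was present in 46 of the 64 genes (71.9%), against 5.14% of the 27305 genes of the table, and at 46 of their 79 starts (58.2%), against 4.07% of 35116 starts. Windows of 30 bases, 10 before the start and 20 from it, are shown for genes that recur in the results, with the tract in capitals. The first 6 had lower values in Siglec-XII samples, RPS14 did not, and RPS27L and RPL10L are paralogs with no tract.
RPL26, chr17:8383174-8383203, minus strand: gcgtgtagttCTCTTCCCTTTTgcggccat
RPL27A, chr11:8682782-8682811, plus strand: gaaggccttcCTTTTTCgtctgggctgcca
RPL11, chr1:23691796-23691825, plus strand: gctccgctttCTCTTCCTgctctccatcat
RPLP0, chr12:120201092-120201121, minus strand: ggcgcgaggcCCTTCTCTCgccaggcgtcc
RPS3, chr11:75399508-75399537, plus strand: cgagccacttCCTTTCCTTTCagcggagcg
RPS6, chr9:19380217-19380246, minus strand: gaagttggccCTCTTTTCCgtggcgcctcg
RPS14, chr5:150449720-150449749, minus strand: ccctcccactCTCTCTTTCCggtgtggagt
RPS27L, chr15:63157458-63157487, minus strand: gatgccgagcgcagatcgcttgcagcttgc
RPL10L, chr14:46651762-46651791, minus strand: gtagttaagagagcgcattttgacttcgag
Among genes with a tract its median length was 8 bases, and the longest, 19 bases, was that of RPL39, which lies beside the exit of the nascent peptide.
RPL39, chrX:119791611-119791640, minus strand: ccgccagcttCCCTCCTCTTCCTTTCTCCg
Of other short motifs searched on both strands of the 300 bases, CCGGAAG, the core bound by ETS-family factors such as GABP, was present in 35.9% of the 64 genes and 12.2% of all genes. AAGATGG, the core bound by YY1, was present in 12.5% and 7.11%, and TATAAA in 9.38% and 14.0%. A copy of any of the 3 may overlap the edge of a tract.

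Values are TPM, the abundance of a transcript corrected for its length and scaled to the total of its sample, which the authors deposited as log2(TPM + 1). A level is therefore relative to all other RNA of its library. The number of reads behind a value is unknown, because every column sums to the same total. SIGLEC12 itself stood at 0.11 ± 0.05 (SD, n = 4) on the log2(TPM + 1) scale in empty vector samples and at 10.70 ± 0.06 (SD, n = 4) in Siglec-XII samples, a difference of 10.59 with a two-sided exact permutation p of 0.0286, the smallest that 4 samples against 4 can give. Between 15513 and 15934 entries reached 1 TPM in a sample. Of 22 colon epithelial markers, 14 were below 1 TPM in all 8 samples and 5 of these (FABP1, KRT20, PHGR1, SI and TFF3) were listed at 0, while KRT8, KRT18, EPCAM, CDX1 and CDX2 passed the filter described next. Of 23 trophoblast markers 16 passed it, led by XAGE3, XAGE2, GATA3 and HSD3B1. The other 7 (CGB3, CGB5, CGB8, ELF5, GCM1, INSL4 and LEP) were below 1 TPM in all 8 samples. Among those that passed, CGA, PLAC1, PSG1, ERVFRD-1, ERVW-1, PSG3 and PGF had means of only 0.79 to 2.37 TPM. The cells therefore lacked most of the colon markers that the label of the line implies. The summed colon markers ranged from 7160 to 8137 TPM in empty vector and from 8641 to 8957 TPM in Siglec-XII samples. Most of that sum was KRT8 and KRT18, with means of 4260 and 3183 TPM over the 8 samples. These 2 genes were higher in Siglec-XII samples by 0.24 and 0.22 on the log2(TPM + 1) scale. The summed trophoblast markers ranged from 3230 to 3278 TPM in empty vector and from 3187 to 3237 TPM in Siglec-XII samples. The part of these differences in the results was not tested.

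Ribosomal protein mRNAs took a smaller share of the transcriptome in Siglec-XII samples. Their summed TPM was 14.0%, 14.6%, 14.6% and 15.8% of all TPM in empty vector replicates 1 to 4, and 13.0%, 13.1%, 13.4% and 14.1% in Siglec-XII replicates 1 to 4. Only Siglec-XII replicate 4 reached into the range of the empty vector samples, above empty vector replicate 1. The means were 14.8% ± 0.773 and 13.4% ± 0.474 (SD, n = 4 each), a difference of -1.36 percentage points and a ratio of 0.908. Under quantile normalization the difference was -0.538 percentage points. Proteins of the 60S subunit went from 8.89% ± 0.402 to 8.13% ± 0.275, and those of the 40S subunit from 5.87% ± 0.372 to 5.26% ± 0.199 (SD, n = 4 each). For the 60S the groups ranged from 8.48% to 9.44% and from 7.90% to 8.52%, and for the 40S from 5.52% to 6.39% and from 5.11% to 5.55%, so that each overlapped by a single sample.

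**Figure D1:**
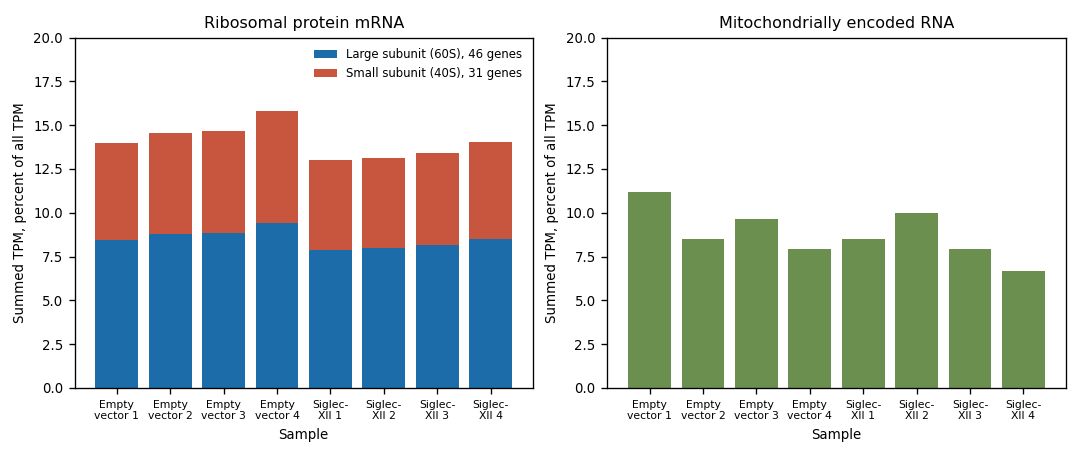
Summed TPM as a percent of all TPM, 1 bar per sample. Left, 60S genes (blue) and 40S genes (red) stacked, with the 4 empty vector samples at 14.0% to 15.8% and the 4 Siglec-XII samples at 13.0% to 14.1%; right, mitochondrially encoded RNA, lowest in replicate 4 of each group.

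The same samples differed in another abundant class of RNA. Mitochondrially encoded RNA took 11.2%, 8.49%, 9.65% and 7.92% of TPM in empty vector replicates 1 to 4 and 8.53%, 9.97%, 7.92% and 6.67% in Siglec-XII replicates 1 to 4. In each group the sample with the lowest mitochondrial share, replicate 4, had the highest ribosomal protein share. Leaving the mitochondrially encoded entries and SIGLEC12 out and rescaling the rest gave a median log2 fold change of -0.16 over the 79 tested genes, against -0.14 on the deposited scale. The part of the mitochondrial share in the spread among samples was not tested.

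Most ribosomal protein genes were expressed at a high and similar level. The median gene had a mean of 1683 TPM over the 8 samples (quartiles 963 and 2307 TPM), 74 of the 81 genes had at least 500 TPM, and 47 of the 100 most abundant entries of the table were ribosomal protein genes. The 60S genes held 60.4% of the summed TPM and the 10 most abundant genes held 27.7%. RPL41, which encodes a very short basic peptide of the 60S subunit, was highest by mean. Its TPM was 5039, 5317, 5595 and 6196 in empty vector replicates 1 to 4 and 5028, 5180, 5119 and 5484 in Siglec-XII replicates 1 to 4. The groups overlapped and RPL41 differed by -0.09 on the log2 scale (SE 0.0676, limma adjusted p = 0.559), which turned to 0.11 under quantile normalization. RPS3, a 40S protein at the site where mRNA enters the ribosome, had 5320, 5530, 5737 and 6211 TPM in empty vector and 4783, 4907, 4922 and 5143 TPM in Siglec-XII samples. For RPS3 all 4 Siglec-XII samples lay below all 4 empty vector samples, with a log2 fold change of -0.20 and a limma adjusted p of 0.143. RPS2, RPL8 and RPS24 followed with means of 4003, 3867 and 3816 TPM. The values of RPL41 and RPS3 over the 8 samples overlapped, as did those of RPS2, RPL8 and RPS24, all of which lay below every value of RPL41 and RPS3.

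At the other end, 4 paralogs had the lowest levels. RPS27L, a p53-induced copy of RPS27, had a mean of 40.4 TPM and RPL39L, a copy of RPL39 best known from testis, had 14.0 TPM. RPL3L, known from striated muscle, stayed at 0.48 TPM or below, and RPL10L, a testis gene, was listed at 0 in every sample but empty vector replicate 2, where it had 0.08 TPM. These last 2 genes failed the filter of at least 1 TPM in at least 4 samples, which left 79 of the 81 genes. The lowest single value among the 79 was 11.4 TPM, so none passed the filter through 1 group only.

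**Figure D2:**
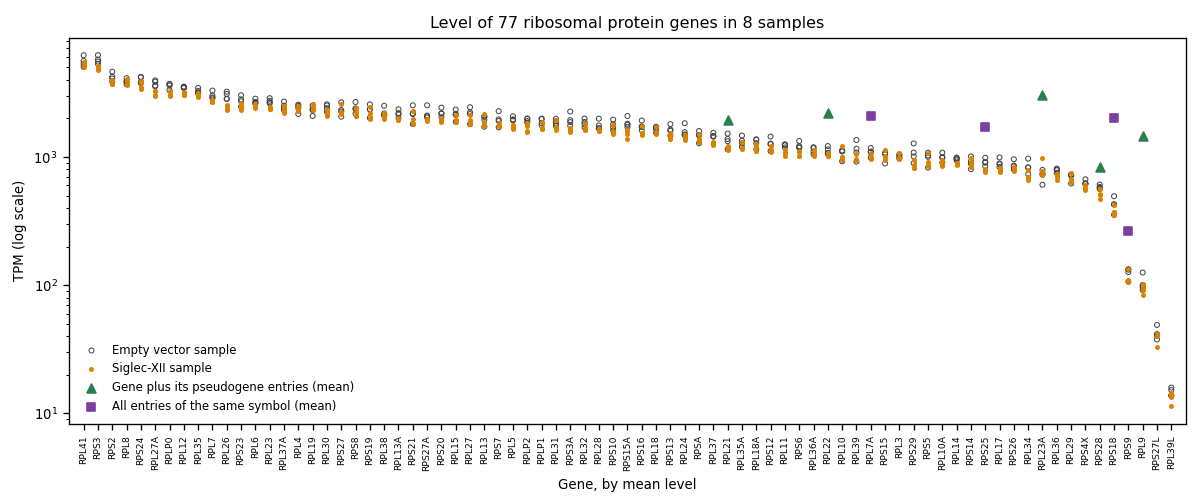
TPM (log axis) of 77 of the 79 tested genes, ordered by mean, with open points for the 4 empty vector and filled points for the 4 Siglec-XII samples. Green triangles add the TPM of pseudogene entries and purple squares sum all entries of a symbol, which lifts RPL9 from 98.2 to above 1000 TPM and RPS18 from 402 to 2009 TPM.

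Some of the low levels depended on how reads were divided among near-identical sequences. RPL9, a 60S protein, was the lowest standard gene at a mean of 98.2 TPM, 54.7-fold below RPL41. Its pseudogene symbol RPL9P9 stood at 1315 TPM, and pseudogene entries held 93.2% of the TPM of RPL9 and its pseudogenes together. With them added, the log2 fold change of RPL9 was -0.19 in place of -0.15. RPL23A, where the signal recognition particle docks at the peptide exit, had 763 TPM beside 2218 TPM on RPL23AP42, and pseudogenes held 74.8% of the sum. For RPL22, RPL21 and RPS28 the pseudogene share was 50.9%, 34.7% and 34.4%. Over the 76 genes with at least 1 pseudogene entry the median share was 0.104%, and only those 5 reached 10%. Several symbols also stood on repeated entries. RPL7A and RPS25 each had 2 entries with identical values, of 1045 and 848 TPM, RPS18 had 6 entries that summed to 2009 TPM, and RPS9 had 4 that summed to 267 TPM. The levels of these 9 genes are therefore uncertain.

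Gene by gene, the shift was small and mostly in the same direction. In a limma fit over the 15590 entries that passed the filter, 75 of the 79 ribosomal protein genes had a lower mean in Siglec-XII samples, where 31.9% of all entries tested did. The median log2 fold change was -0.14 (quartiles -0.18 and -0.10, range -0.30 to 0.17), which is -9.36%, against 0.07 over all entries. None of the 79 had a limma adjusted p under 0.05, a limit that 101 entries passed (0.648%, with 0.308% lower and 0.34% higher). At an unadjusted p under 0.05, 35 of the 79 were lower and 0 were higher, against 2.61% and 13.9% of all entries. In 26 genes all 4 Siglec-XII samples lay below all 4 empty vector samples and in 0 above them, against 1.68% and 9.17% of all entries. The 26 became 43 without empty vector replicate 1 and 41 without Siglec-XII replicate 4, where the share of all entries that lay lower without overlap was 3.06% and 2.46%.

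These counts depended on the scale used. The number of ribosomal protein genes with a lower mean ranged from 68 under quantile normalization to 78 with equal upper quartiles, and the median log2 fold change from -0.07 to -0.20. Under the same 2 scalings 22 and 63 genes were lower at an unadjusted p under 0.05 in place of 35, against 5.63% and 5.68% of all entries, and lower entries made up 44.5% and 44.1% of all entries at that limit in place of 15.9%. Under quantile normalization 1 ribosomal protein gene was higher at that limit.

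**Figure D3:**
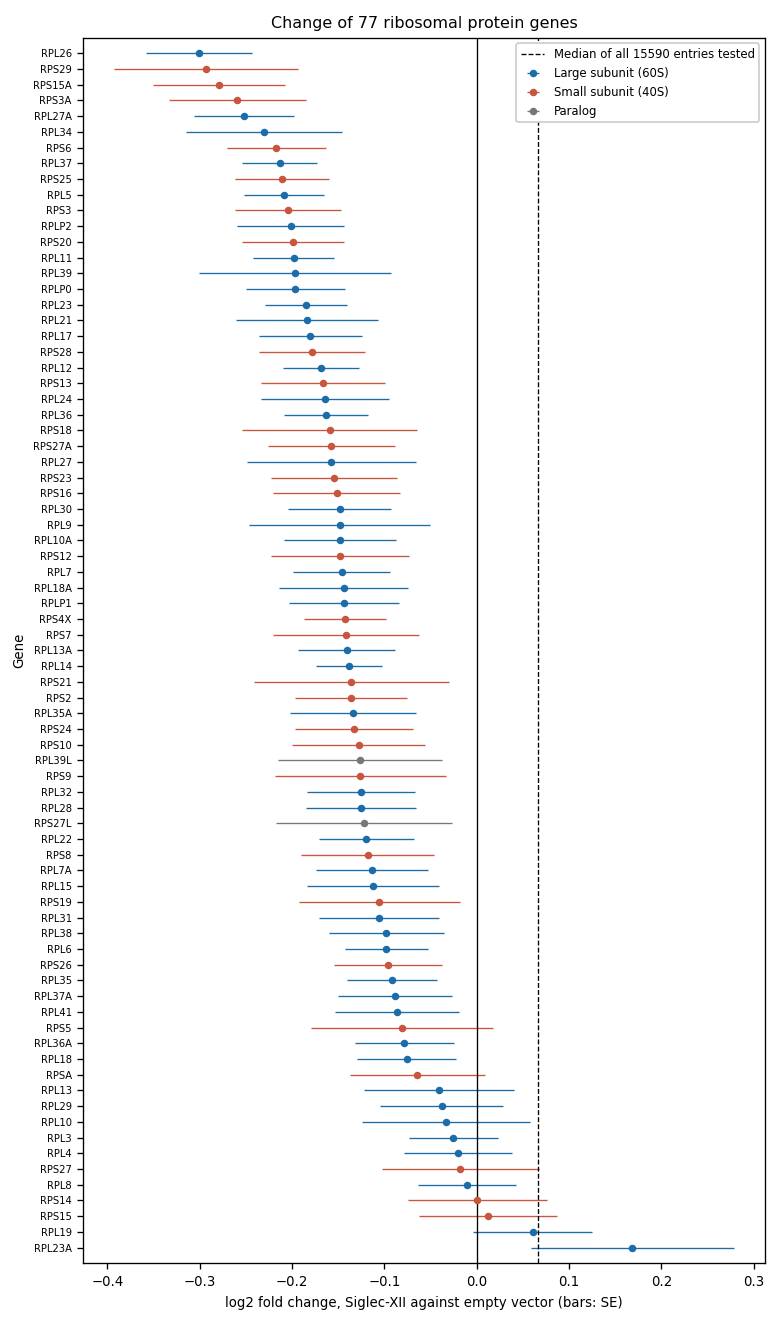
log2 fold change of Siglec-XII against empty vector for 77 of the 79 tested genes with its SE, blue for 60S, red for 40S and grey for paralogs; the dashed line is the median of all 15590 entries. Points run from -0.30 (RPL26) to 0.17 (RPL23A), and all but RPS14, RPS15, RPL19 and RPL23A lie below 0.

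The 10 genes with the smallest p-values held 7 of the 60S and 3 of the 40S subunit. RPL37, a zinc-binding protein that folds around rRNA of the 60S subunit (GRCh37 chr5:40825364-40835324, minus strand), came first. Its TPM was 1441, 1445, 1455 and 1540 in empty vector replicates 1 to 4 and 1246, 1268, 1250 and 1307 in Siglec-XII replicates 1 to 4. The groups did not overlap, and RPL37 was lower by -0.21 (SE 0.0403, adjusted p = 0.0599). RPL26 (chr17:8280834-8286531, minus strand), which lies by the peptide exit and is also known to bind p53 mRNA, had 3223, 2838, 2827 and 3096 TPM in empty vector and 2476, 2320, 2550 and 2373 TPM in Siglec-XII samples. It was the most lowered of the 79, without overlap, at -0.30 (SE 0.0574, adjusted p = 0.0631), a change of -18.8%. RPL27A, a 60S protein (chr11:8704335-8736306, plus strand), had 3854, 3554, 3605 and 3950 TPM against 3008, 3025, 3283 and 3242 TPM. Its groups did not overlap either, at -0.25 (SE 0.0541, adjusted p = 0.0891). RPS25, a 40S protein needed for initiation at several viral internal entry sites, was lower by -0.21 with an adjusted p of 0.109 and without overlap. The 10 also held RPL5, RPL11, RPL23 and RPL12, which belong to the groups described next.

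A short list of 5S ribonucleoprotein proteins and some other MDM2-binding proteins had 5 of 5 below 0 and a median log2 fold change of -0.20. Groups did not overlap for 4 of the 5. Of the 79 genes 94.9% were below 0 and 32.9% were lower without overlap, against 31.9% and 1.68% of all entries. RPL5 (chr1:93297570-93307481, plus strand) had 1960, 1937, 1936 and 2073 TPM in empty vector and 1690, 1657, 1787 and 1704 TPM in Siglec-XII samples. RPL11 (chr1:24018232-24023325, plus strand) had 1245, 1252, 1184 and 1233 TPM in empty vector and 1075, 1064, 1127 and 1017 TPM in Siglec-XII samples. All Siglec-XII samples lay below all empty vector samples for both genes. The log2 fold changes were -0.21 for RPL5 (SE 0.0436, adjusted p = 0.0838) and -0.20 for RPL11 (SE 0.0437, adjusted p = 0.0966). RPL23, which also binds MDM2, was lower by -0.18 (adjusted p = 0.109). Of the list, only RPS7 (-0.14) had overlapping groups.

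The stalk of the 60S subunit, to which translation factors bind, is built from RPLP0 with the acidic proteins RPLP1 and RPLP2, next to RPL12. All 4 were lower at an unadjusted limma p under 0.05, with a median of -0.18, against 44.3% of the 79 genes and 2.61% of all entries. RPLP0 (chr12:120634502-120639038, minus strand) had 3313, 3601, 3679 and 3714 TPM in empty vector and 3029, 2989, 3205 and 3259 TPM in Siglec-XII samples. Its groups did not overlap, at -0.20 (SE 0.0534, adjusted p = 0.136). RPLP2 at -0.20 (adjusted p = 0.149) and RPL12 at -0.17 (adjusted p = 0.109) did not overlap either. RPLP1 had 1988, 1835, 1974 and 1761 TPM against 1682, 1864, 1658 and 1637 TPM, so that Siglec-XII replicate 2 lay above 2 of the empty vector samples, and its change was -0.14 (adjusted p = 0.272).

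Proteins around the peptide exit tunnel were less uniform. Of 9, 7 were lower and 2 higher, with a median of -0.11. Beside RPL26, which was lowest, the list holds RPL22 at -0.12 (adjusted p = 0.290), RPL19 at 0.06 (adjusted p = 0.680) and RPL23A. RPL23A had 607, 744, 728 and 791 TPM in empty vector and 716, 774, 758 and 989 TPM in Siglec-XII samples. It had the highest fold change of the 79, at 0.17 (SE 0.110, adjusted p = 0.474), with overlapping groups and its extremes in empty vector replicate 1 and Siglec-XII replicate 4. With the pseudogene entries added, RPL23A changed by 0.06.

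On the 40S side, 29 of 31 genes were lower and 10 did not overlap, with a median of -0.15. The 60S median was close, at -0.14, with 44 of 46 lower and 16 without overlap. Of all entries tested, 31.9% were below 0 and 1.68% were lower without overlap. RPS29, a zinc-binding protein of the 40S head, was the lowest 40S gene by fold change at -0.29 (adjusted p = 0.203). It had 894, 1009, 1081 and 1272 TPM in empty vector and 817, 860, 823 and 950 TPM in Siglec-XII samples. Empty vector replicate 1 lay inside the Siglec-XII range and replicate 4 lay far above it. RPS15A at -0.28 (adjusted p = 0.118) and RPS3A at -0.26 (adjusted p = 0.149), both 40S proteins that contact rRNA, had groups that did not overlap. RPS6, the 40S protein phosphorylated by S6 kinase downstream of mTOR, had 1183, 1184, 1212 and 1332 TPM in empty vector and 1011, 1018, 1108 and 1087 TPM in Siglec-XII samples. Those groups were apart too, at -0.22 (SE 0.0536, adjusted p = 0.109).

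A list of 10 proteins along the mRNA channel and decoding face of the 40S subunit, which includes FAU from outside the rule, had 7 lower and 3 higher members and a median of -0.12. RPS2 was at -0.14 and RPS3 at -0.20, while RPS15 was at 0.01 (adjusted p = 0.951) and RPS14 at 0.00 (adjusted p = 0.998). RPS14, a platform protein lost in the 5q- syndrome, had 802, 884, 925 and 1009 TPM in empty vector and 835, 907, 886 and 987 TPM in Siglec-XII samples, with the Siglec-XII values all inside the empty vector range. The fold changes of RPS14, RPS15 and RPL19 turned below 0 with equal upper quartiles. RPSA, the laminin-binding 40S protein, was at -0.06 (adjusted p = 0.698). All 15 of a list of Diamond-Blackfan anemia genes were below 0, with a median of -0.14 and 4 without overlap (26.7%). The 79 genes as a whole were much the same, with 94.9% below 0, a median of -0.14 and 32.9% lower without overlap. Of all entries 31.9% were below 0 and 1.68% were lower without overlap.

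RPS27A is made as a fusion with ubiquitin and FAU as a fusion with a ubiquitin-like protein. RPS27A had 2028, 2098, 2075 and 2524 TPM in empty vector and 1906, 1924, 1979 and 1983 TPM in Siglec-XII samples. It was at -0.16 (adjusted p = 0.296) without overlap. FAU (0.02) had overlapping groups, and so did RACK1 (-0.00), a scaffold protein of the 40S head that is also read from a TOP mRNA. The sign of FAU and RACK1 changed with the scaling. These genes outside the rule, together with RPL8 (-0.01), RPS14 and RPS15, were among those that differed least.

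The paralogs split. Of the 4 matched by the rule, RPS27L at -0.12 (adjusted p = 0.559) and RPL39L at -0.13 (adjusted p = 0.506) had overlapping groups and RPL3L and RPL10L were not tested. Among 4 named outside the rule, RPL22L1, which can replace RPL22 in the ribosome, had 85.8, 97.7, 85.7 and 102 TPM in empty vector and 61.0, 60.2, 72.8 and 73.7 TPM in Siglec-XII samples. It did not overlap and was lower by -0.47 (SE 0.0881, adjusted p = 0.0599), a larger change than that of any of the 79 genes. RPL7L1 had 67.0, 82.3, 86.1 and 86.0 TPM in empty vector and 90.2, 87.7, 89.0 and 94.8 TPM in Siglec-XII samples, all of them higher, and was at 0.18 (adjusted p = 0.309). RPL26L1 and RPL36AL were both at -0.02.

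Within a group, most genes rose and fell together from sample to sample. In 64 of the 79 genes empty vector replicate 4 was the highest of its group, and in 57 replicate 1 was the lowest. Among Siglec-XII samples, replicate 4 was highest in 61 genes and replicate 1 lowest in 40. The median deviation from a gene's mean over all 8 samples was -0.05, 0.06, 0.06 and 0.18 on the log2 scale in empty vector replicates 1 to 4 and -0.11, -0.10, -0.07 and 0.02 in Siglec-XII replicates 1 to 4. The pooled SD of single genes within groups had a median of 0.0910 and ranged from 0.0237 to 0.186 on the log2 scale. Between pairs of genes the median Pearson r over the 8 samples was 0.726, and 0.678 after the group means were removed, where all genes share the same libraries and the same total.

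**Figure D4:**
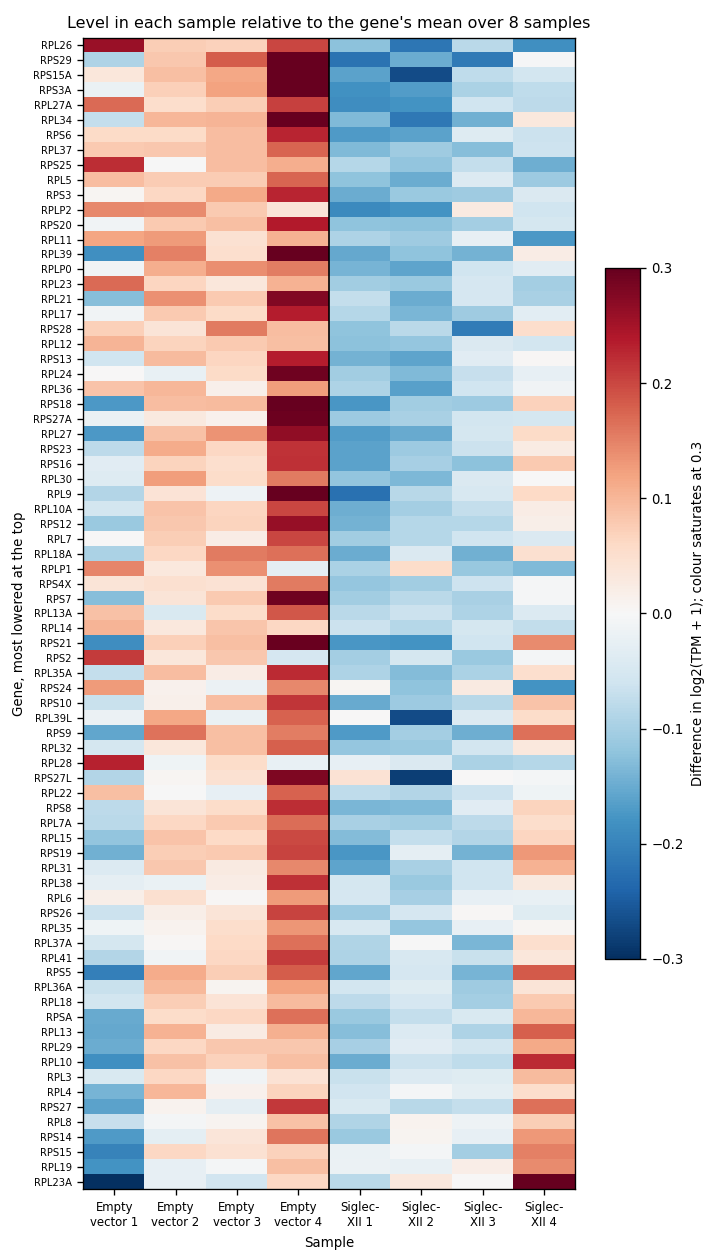
Level of 77 of the 79 genes in each sample minus the gene's mean over 8 samples, on the log2 scale (red higher, blue lower, color saturating at 0.3), with genes ordered by fold change. Empty vector replicate 4 is the reddest column, and empty vector replicate 1 is red for RPL26, RPL28 and RPS25 but blue for most genes in the lower part.

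A smaller number of genes did not follow this order. In 9 genes (RPS2, RPL12, RPL26, RPL23, RPLP2, RPLP1, RPL28, RPL14 and RPS25) the highest empty vector sample was replicate 1. Of these 9, 7 had groups without overlap, and their median log2 fold change was -0.17. In the 64 genes led by replicate 4 the median was -0.14 and 18 did not overlap. The 7 and the 18 are counts from the same samples that ordered the genes and carry no test.

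The shift was set beside that of other abundant RNAs. Of the ribosomal protein genes, 74 had a mean log2 level of at least 9, and 70 of these were lower, with 35 at an unadjusted p under 0.05 and a median of -0.14. Among the 192 other entries in that range 85 were lower (44.3%) and 20 were so at an unadjusted p under 0.05 (10.4%), with a median of 0.01. For the 155 of these that are nuclear and protein coding, the median was 0.03 and 56 were lower. The 19 mitochondrially encoded entries in that range had a median of -0.17, with 17 lower. The remaining 18 entries had a median of -0.21, with 12 lower and 6 so at an unadjusted p under 0.05 (33.3%). The 192 entries included pseudogenes of ribosomal protein genes, among them RPL23AP42, RPL9P9 and RPL22P1, and also FAU and TPT1. They are therefore not a set apart from the ribosomal protein genes.

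The shift was also set beside that of genes of like transcript length. Protein-coding genes outside the rule with an annotated main transcript under 1000 nt had a median of 0.00, those of 1000 to 2000 nt 0.04, those of 2000 to 4000 nt 0.07 and longer ones 0.10. In the same classes the ribosomal protein genes had medians of -0.15 (45 genes), -0.14 (16), -0.11 (13) and -0.14 (5). The last 5 were RPL37, RPL14, RPS27L, RPL27A and RPL28, with annotated transcripts of 4209 to 7573 nt. The lengths of the transcripts measured are not known. Genes with a TOP tract at an annotated start had a median of -0.14, with 45 of 46 lower and a median level of 1672 TPM. The 17 tested genes with none had a median of -0.13, with 15 lower and a median level of 1002 TPM.

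**Figure D5:**
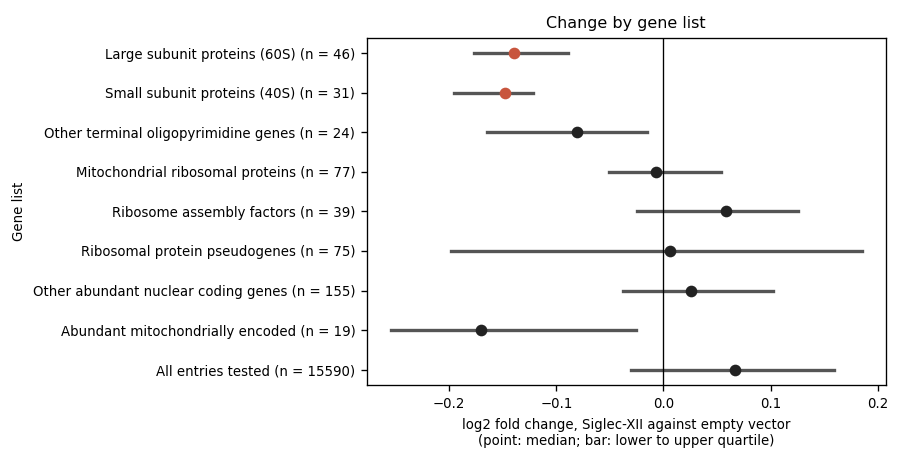
Median (point) and quartiles (bar) of the log2 fold change of Siglec-XII against empty vector for each gene list, with the number of genes tested. The 60S and 40S lists (red) center on -0.14 and -0.15, other TOP genes on -0.08, mitochondrial ribosomal proteins on -0.01, assembly factors on 0.06 and all entries on 0.07.

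Other genes with a TOP mRNA, which encode translation factors, poly(A)-binding protein and hosts of small nucleolar RNAs, were lower in 21 of 24, with a median of -0.08. In this list 9 were lower at an unadjusted limma p under 0.05 (37.5%, against 2.61% of all entries). In 10 the groups did not overlap, all of them lower (41.7%, against 1.68% of all entries). The adjusted limit was passed, as by 0.308% of all entries with a lower mean, by 1 gene. That gene, EPB41L4A-AS1, a noncoding host of a small nucleolar RNA, had 68.4, 70.4, 70.1 and 71.4 TPM in empty vector and 47.3, 47.4, 47.1 and 55.1 TPM in Siglec-XII samples, and it fell by 0.50 on the log2 scale (adjusted p = 0.00418). TPT1, one of the most abundant mRNAs of the table, was at -0.31 (adjusted p = 0.0545), and the nucleolar RNA hosts SNHG8 and GAS5 were at -0.27 and -0.26 (adjusted p = 0.138 and 0.137). The summed TPM of this list was 3.37% ± 0.0643 of the total in empty vector and 3.11% ± 0.0619 in Siglec-XII samples (SD, n = 4 each). This sum took every entry of a symbol, so that genes on repeated entries, such as EEF1B2, were counted more than once. The sums of ribosomal protein genes above took a single entry per symbol.

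Genes that build ribosomes without being part of them had a median near that of all entries. Of 39 genes listed as assembly factors, which include a transcription factor and a subunit of RNA polymerase I, 11 were lower and 28 higher. Of all entries tested, 68.1% were higher. None of the 39 passed the adjusted limit in limma. At an unadjusted p under 0.05, 8 were higher and 0 lower, against 13.9% and 2.61% of all entries. The median of the list was 0.06. The largest changes were those of EIF6 (0.22), which keeps free 60S subunits from joining, of BOP1 (0.21) and BYSL (0.20), which act in 60S and 40S maturation, and of POLR1B (0.19), a subunit of RNA polymerase I. Of 77 mitochondrial ribosomal protein genes, 43 were lower and 34 higher, and none passed the adjusted limit in limma. At an unadjusted p under 0.05, 4 were lower (5.19%) and 3 higher, against 2.61% and 13.9% of all entries. The median of this list was -0.01. MRPL23 (0.31), MRPS21 (-0.24), MRPS16 (0.18) and MRPL32 (-0.17) had the largest changes there. The medians of these 2 lists moved down under quantile normalization and equal upper quartiles.

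Pseudogenes of ribosomal protein genes were many and mostly silent. Of 1132 pseudogene symbols 75 passed the filter, with 37 lower and 38 higher. Their median log2 fold change was 0.01 and none passed the adjusted limit in limma. At an unadjusted p under 0.05, 6 were lower (8%) and 5 higher, against 2.61% and 13.9% of all entries. The largest changes were those of RPL23AP84 (1.05), RPL3P4 (-0.98), RPL39P34 (-0.85) and RPS29P21 (0.83). All pseudogene entries together held 0.669% ± 0.0146 of TPM in empty vector and 0.626% ± 0.0191 in Siglec-XII samples (SD, n = 4 each). RPL9P9 at 1405 against 1224 TPM and RPL22P1 at 1203 against 1020 TPM (group means) were lower, as were their parent genes. RPS28P7 was higher, at 277 against 298 TPM, where its parent RPS28 was at -0.18, and RPL23AP42 was at 2205 against 2231 TPM.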

How the data were processed

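RNA from 8 Caco-2 samples was sequenced as paired reads. Per the labels the libraries were made from total RNA with a stranded rRNA-depleting kit, whereas the methods of the study name a stranded mRNA kit. The methods give alignment to hg19 with kallisto 0.44.0, and the submitters' processing notes give kallisto 0.45.0. The authors deposited the values as log2(TPM + 1) for 63816 gene entries, and the annotation release is not given in the sources used here. Sequencing depth is stated only as a range, the same for every sample. Columns taken back from the log scale sum to the same total, so the reads behind a value, and with them any counting interval, are unknown. The count model of the study needs counts, which these values are not.

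Groups were taken from the sample titles. The test was limma (version 3.58.1, R 4.3.3, lmFit and eBayes with trend) on log2(TPM + 1), with pseudocount 1, over the 15590 entries with at least 1 TPM in at least 4 samples, with Benjamini-Hochberg adjustment over all of them. A fold change is on that scale. Adjusted p-values in the text are limma's. Groups were called non-overlapping where every sample of a group lay beyond every sample of the other. SIGLEC12 was tested by exact permutation of the sample labels (two-sided, 70 labellings). Fits were tested on simulated data. GRCh37 positions and transcript lengths came from GENCODE, matched by gene ID for 79 of the 81 genes and 55485 entries, and promoter sequences from RefSeq. For 21 of the 81 genes the entry names a transcript that is not protein coding, or is not in that annotation. Replicate numbers were checked for pairing by the correlation of deviations from group means, as given in the closing section.

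The genes, lists and tests were chosen with earlier results of these data known. Genes named with values were the 10 with the smallest p (since fewer than 10 passed the adjusted limit), the 5 highest and 5 lowest by mean, the 5 most raised and 5 most lowered, the paralogs, the stalk, MDM2-binding and fusion proteins, RPSA, RPS6, RPL22 and RACK1, and up to 4 of each other list. Others were named after their values were seen, and a few items are not reported here. Alternatives were another pseudocount, filter, scaling, length correction, moderation, sample weights, replicate block and leaving out each sample.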

Additional observations from a re-analysis of the deposited data

Results flagged for a closer look

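In 9 of 160 groups of 4 values, the highest or lowest sample stood apart from the rest, its gap to the nearest sample taking more of the range of the group than Dixon's 95% limit for 4 values. Chance alone gives about 1 in 20 such groups, and genes share their samples. Empty vector replicate 4 was the high sample for RPL37 (0.854 of the range), RPS27A (0.845) and RPS4X (0.924). Empty vector replicate 1 was the low sample for RPL10 (0.921), RPS15 (0.911) and RPL29 (0.910). Among Siglec-XII samples, replicate 4 was high for RPS27 (0.848), replicate 3 was high for RPL23 (0.843) and replicate 2 was low for RPS27L (0.845). RPL37 and RPL23 were among the 10 genes with the smallest p-values. Without empty vector replicate 4 the lowest adjusted p of any ribosomal protein gene was 0.117 in place of 0.0599, and leaving out each sample in turn gave 0.0602 to 0.159.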

How the results depend on the processing

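The number of ribosomal protein genes with an adjusted p under 0.05 was 0, and became 3 with a mean of at least 5 TPM (RPL26 and RPL37 among them), 2 with equal upper quartiles (RPL37, RPL5), 5 without mitochondrially encoded entries and SIGLEC12 (RPL26, RPL27A, RPL37 and RPL5 among them), and 1 each with the length trend removed and with sample weights (RPL37), all of them lower. It was 0 without each sample in turn. The length correction used annotated lengths, and RPL37, at 7573 nt, moved from -0.21 to -0.32. RPS25, at 483 nt, moved from -0.21 to -0.17. Genes lower at an unadjusted p under 0.05 numbered 35, but 22 under quantile normalization and 63 with equal upper quartiles, and genes without overlap numbered 26, but 15 and 54 under these, and 26 to 43 without each sample, where the share over all entries went from 1.68% to 3.23% and 3.49%, and to 2.17% to 3.06%. The median log2 fold change of -0.14 became -0.0705 and -0.20 under these scalings, and the summed TPM difference of -1.36 percentage points became -0.538 under quantile normalization. The 101 entries called over the whole table became 51 with no filter, 23 without small structured RNAs, 54 without trend and 40 to 154 without each sample. Lower calls made up 47.5% of the 101, and 67.4% and 70.7% under the 2 scalings. The other TOP genes called numbered 2 in place of 1 with pseudocount 0.1, a mean of at least 5 TPM, equal upper quartiles, no mitochondrial entries or length trend removed. The median of assembly factors (0.06) became 0.00164 and -0.00297, that of mitochondrial ribosomal proteins (-0.01) became -0.0677 and -0.0675, and 1 pseudogene was called with no filter, under both scalings and without empty vector replicate 4 (0 to 1 without each sample). The cause of these changes was not tested.

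Of 52 single genes under 1128 alternatives, 1073 kept direction and side of the limit, 21 passed it (7 genes) and 34 reversed (9 genes). Under quantile normalization, RPL41 was at 0.11, RPL8 at 0.0492 and RACK1 at 0.11. With equal upper quartiles, RPS14 was at -0.061, RPS15 at -0.0495, RPL19 at -0.00102 and FAU at -0.0407. With the ribosomal protein genes left out of the total, RPS14 was at -0.0222, RPS15 at -0.0106 and FAU at -0.00189. Without mitochondrially encoded entries and SIGLEC12, RPS14 was at -0.0132 and RPS15 at -0.00165. Without small structured RNAs, RPS14 was at -0.000437. With the length trend removed, RPS14 was at -0.0565. With sample weights, RPS14 was at -0.0258 and RPS15 at -0.0202. Without each sample in turn the ranges were -0.0372 to 0.0174 (RPL8), -0.0555 to 0.0546 (RPS14), -0.0528 to 0.0484 (RPS15), -0.099 to 0.0571 (RPL26L1), -0.0553 to 0.0207 (RPL36AL), -0.00546 to 0.038 (FAU) and -0.0617 to 0.0253 (RACK1).

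Same-numbered samples of the groups did not deviate together by correlation (r of 0.040, 0.028, -0.074 and 0.059 for numbers 1 to 4). Among the 79 ribosomal protein genes, however, replicate 4 was most often the highest in both groups (64 and 61 genes). Replicate 1 was most often the lowest in both (57 and 40 genes). Whether the numbers pair the samples is therefore not known. With the replicate number as a block, 0 ribosomal protein genes passed the adjusted limit in limma (lowest adjusted p = 0.124). At an unadjusted p under 0.05, 52 were lower in place of 35, against 3.01% and 2.61% of all entries. Summing entries of the same symbol, an alternative chosen after seeing the data, left 0 called. Pseudocounts, filters, moderation, weights and the block do not enter a summed TPM, and pseudogenes added to a parent leave no pseudogene list. Depth is stated only as a range and the reads behind a value are unknown, so no limit from read counts can be given.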
